A study of Mus musculus with 18 samples.

Results

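Accessible intergenic regions that lie within reach of coding genes were examined in a catalog of open chromatin from mouse macrophages. In each extended region on chromosomes 1 to 19 the summit with the best score was kept, the lowest start deciding ties. A summit was retained if it lay more than 1000 bp from every annotated transcript start, outside every protein-coding gene body, and no more than 100000 bp (100 kb) from the nearest start of a protein-coding transcript. This left 15948 intergenic regions out of 58386 regions on these chromosomes (27.3%). The other regions comprised 22649 that lay more than 1000 bp from every start but in the body of a coding gene outside its exons (gene body regions), 3346 that were intergenic but further than 100 kb from any coding start, 11086 at coding promoters and 5357 that fitted none of these descriptions. The gene body regions were taken at any distance from a coding start, and 1610 of them lay beyond 100 kb. The kind of a region was set by the position of the summit kept. Where a region had several summits, the score chose that summit and could thereby also decide the kind.

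The libraries were made by ATAC-seq, which uses the Tn5 transposase to tag DNA that nucleosomes leave exposed. The source was wild type mouse bone marrow-derived macrophages (BMDMs), a primary culture grown from male C57/BL6 mice of 6 to 8 wk according to the methods. Cells in all 9 groups had been given the vehicle DMSO for 1 h, after which they either stayed untreated or received 10 ng/mL of the bacterial product lipopolysaccharide (LPS) or 10 ng/mL of the cytokine IL-4, for 30 min, 1 h, 2 h or 4 h. Each group had 2 libraries (18 in all), but the deposited lists pool them and have no column per library, so that depth is unknown, no group or replicate could be compared, and every statement below concerns 1 catalog.

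Distal regulatory elements are stretches of DNA at which sequence-specific transcription factors displace nucleosomes and from which they act on promoters elsewhere on the chromosome. In macrophages, PU.1 (encoded by Spi1) and C/EBP factors open many of these elements during differentiation, and AP-1, NF-kB, IRF and STAT factors act there when the cells are stimulated. CTCF is a zinc finger protein of another kind, known for holding chromatin loops and domain borders rather than for a role in a single cell type.

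The sequences on which the description turns are given first. For genes chosen for their roles in macrophages and in the LPS and IL-4 responses, the best-scored intergenic region nearest to the gene is shown if its window held a motif. Each window reaches 100 bases to either side of the summit and is read 5′ to 3′ on the plus strand of mm10, with motif matches in capitals. The searched motifs included GAGGAAGT (PU.1), TGACTCA (AP-1), TTGCNNAA (C/EBP), TGTGGTT (RUNX), GGGGCGGGG (SP/KLF), TGACGTCA (CRE), TCACGTGA (MiT factors, such as MITF and TFEC) and CAAAGTCCA (HNF4), each on both strands. Longer patterns were NF-kB, CTCF, MEF2 and HNF1 consensus sites, IRF (a pair of GAAA blocks 2 bases apart), the PU.1-IRF composite (GGAA and GAAA 2 bases apart) and STAT6 (TTC and GAA 4 bases apart). The composite can share bases with PU.1 and IRF matches, and a STAT6 match has few fixed letters.
Il12b (chr11:44390135-44390335): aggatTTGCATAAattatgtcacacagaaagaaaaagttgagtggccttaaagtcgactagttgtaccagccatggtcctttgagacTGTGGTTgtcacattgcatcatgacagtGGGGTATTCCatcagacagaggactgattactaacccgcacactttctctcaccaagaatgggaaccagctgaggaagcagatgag
Il10 (chr1:131038134-131038334): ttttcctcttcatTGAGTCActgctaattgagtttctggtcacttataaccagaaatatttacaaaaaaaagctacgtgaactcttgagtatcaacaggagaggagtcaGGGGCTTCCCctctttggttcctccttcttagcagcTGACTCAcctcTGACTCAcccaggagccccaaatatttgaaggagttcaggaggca
Tnfaip3 (chr10:18943449-18943649): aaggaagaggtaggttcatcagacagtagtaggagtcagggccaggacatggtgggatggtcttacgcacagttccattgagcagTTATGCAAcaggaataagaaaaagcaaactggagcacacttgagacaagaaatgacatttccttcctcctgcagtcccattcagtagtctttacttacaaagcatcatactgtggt
Nfkbiz (chr16:55754475-55754675): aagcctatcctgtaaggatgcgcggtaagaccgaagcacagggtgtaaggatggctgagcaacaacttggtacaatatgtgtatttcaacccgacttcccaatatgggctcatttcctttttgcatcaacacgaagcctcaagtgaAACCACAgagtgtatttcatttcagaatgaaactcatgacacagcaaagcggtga
Nos2 (chr11:78916504-78916704): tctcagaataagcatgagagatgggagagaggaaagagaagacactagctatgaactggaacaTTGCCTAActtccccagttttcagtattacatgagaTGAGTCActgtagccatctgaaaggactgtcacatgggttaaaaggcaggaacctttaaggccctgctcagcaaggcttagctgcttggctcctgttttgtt
Il1b (chr2:129360241-129360441): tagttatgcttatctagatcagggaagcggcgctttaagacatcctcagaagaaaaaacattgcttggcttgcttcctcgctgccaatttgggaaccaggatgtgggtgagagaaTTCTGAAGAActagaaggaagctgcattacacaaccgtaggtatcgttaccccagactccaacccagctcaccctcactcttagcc
Ccl24 (chr5:135568744-135568944): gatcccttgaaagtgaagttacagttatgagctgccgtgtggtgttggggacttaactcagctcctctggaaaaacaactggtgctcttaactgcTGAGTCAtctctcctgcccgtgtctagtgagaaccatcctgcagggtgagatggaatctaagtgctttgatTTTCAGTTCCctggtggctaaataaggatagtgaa
Cebpb (chr2:167760104-167760304): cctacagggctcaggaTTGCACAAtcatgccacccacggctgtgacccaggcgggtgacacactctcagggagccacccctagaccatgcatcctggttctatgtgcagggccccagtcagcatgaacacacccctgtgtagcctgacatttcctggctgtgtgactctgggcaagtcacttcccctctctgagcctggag
Nlrp1b (chr11:71251457-71251657): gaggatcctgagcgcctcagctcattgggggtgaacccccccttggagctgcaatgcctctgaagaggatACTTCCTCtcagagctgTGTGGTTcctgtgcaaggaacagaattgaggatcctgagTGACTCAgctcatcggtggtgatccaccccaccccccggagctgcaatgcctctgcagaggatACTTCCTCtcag
Btbd10 (chr7:113377995-113378195): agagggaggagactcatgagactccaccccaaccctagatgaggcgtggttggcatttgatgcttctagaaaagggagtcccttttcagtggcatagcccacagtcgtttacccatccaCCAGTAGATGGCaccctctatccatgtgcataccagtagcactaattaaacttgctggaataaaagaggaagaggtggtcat
The last pair stands for features of the whole set and was picked after its values had been seen. The Nlrp1b region had PU.1, AP-1 and RUNX matches and was among the 5 best-scored regions, and the Btbd10 region represents those with a CTCF match, among which its score was high. In the Il12b window, capitals mark C/EBP, RUNX and NF-kB matches from left to right. The Il10 window has 3 AP-1 matches and 1 NF-kB match, the Nos2 window C/EBP and AP-1, and the Ccl24 window AP-1 and, on the minus strand, the composite. The Il1b window has a STAT6 match, those of Tnfaip3 and Cebpb C/EBP and that of Nfkbiz RUNX. A match describes letters and does not show that a factor was bound.

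The intergenic regions lay at a median distance of 19918 bp from the nearest coding start (interquartile range 8533.5 to 41721 bp). Most of them (11175, 70.1%) were upstream of that start, as was 68.1% of the sequence that met the position rule. Per Mb of that sequence, 26.2 regions were found upstream and 23.9 downstream. A long noncoding gene body covered 1776 of them (11.1%). For 38.5% the nearest annotated start was that of a protein-coding transcript. For the rest another kind of transcript began closer, which can include noncoding transcripts of coding genes. Reference peaks around the summits were 220 bp wide in the median, with quartiles of 187 and 273 bp, and in 79.2% of cases it was the sole peak of its extended region. Mean GC content of the windows was 48.9% ± 6.32 (SD over regions).

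Regions on either side of the limits were as follows. The region just inside the 1000 bp limit lay 1002 bp from the nearest annotated start and had a score of 534. Its nearest coding start, that of Cd34, was 73869 bp away. Just outside, at 1000 bp, was a region near Vmn1r21 with a score of 282. The region just inside the 100 kb limit was 99982 bp from Thbs1 (score 1224) and the one just outside 100051 bp from Pik3r1 (score 505).

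The cell type of the catalog was checked with marker genes. A reference peak lay within 1000 bp of a start in 8 of 8 macrophage markers (Adgre1, Itgam, Cd68, Csf1r, Lyz2, Mertk, Fcgr1 and Spi1). The same was found for 1 of 4 B and T cell markers, Pax5, whereas Cd3e and Cd4 were among those without. Cd4 was nonetheless the nearest coding gene of 2 intergenic regions.

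Intergenic regions were not spread evenly over the sequence available to them. The rule could be met by 626.868 Mb of sequence outside assembly gaps, in which regions occurred at 25.4 per Mb. Across the 19 chromosomes the density was 25.8 ± 4.45 per Mb (SD), with the lowest value on chromosome 14 (19.3) and the highest on chromosome 11 (37.0), followed by chromosome 19 (34.3). Density fell with distance, from 34.9 per Mb at 1 to 5 kb from the nearest coding start to 33.0 at 5 to 10 kb, 29.7 at 10 to 25 kb, 23.9 at 25 to 50 kb and 16.8 at 50 to 100 kb. The log2 ratio of the densities at 1 to 10 kb and 50 to 100 kb was 1.01 ± 0.34 (SD, n = 19 chromosomes). It was above 0 on 19 of 19 chromosomes (two-sided paired permutation test with 100000 resamples, p = 2e-05). These tests take the chromosome as the unit, and their p-values thus measure the spread between chromosomes of the same catalog and not between mice or libraries. With the resamples drawn, 2e-05 is the smallest p-value that these tests can give.

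Regions were also denser around genes whose promoter was accessible. A coding gene was considered open if a reference peak lay within 1000 bp of a coding start. Open genes were nearest to 47.2% of the eligible sequence and to 76.2% of the intergenic regions (12150 of 15948). The density was 41.1 per Mb around open genes and 11.5 per Mb around the others, a log2 ratio of 1.83 ± 0.33 over chromosomes (SD, n = 19, above 0 on 19 of 19, two-sided paired permutation p = 2e-05). The gap was present at all 5 distances. At 1 to 5 kb, chromosomes had 55.8 ± 6.20 regions per Mb near open genes and 16.1 ± 4.37 near the others, and at 50 to 100 kb 27.6 ± 4.32 and 7.31 ± 2.92 (SD, n = 19). Regions 50 to 100 kb from an open gene were thus denser, at 20.9 per Mb or more on each chromosome, than the mean of regions 1 to 5 kb from a closed one. Promoter peaks and intergenic regions come from the same libraries and the same peak calls, and local sequencing efficiency was not measured.

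**Figure D1:**
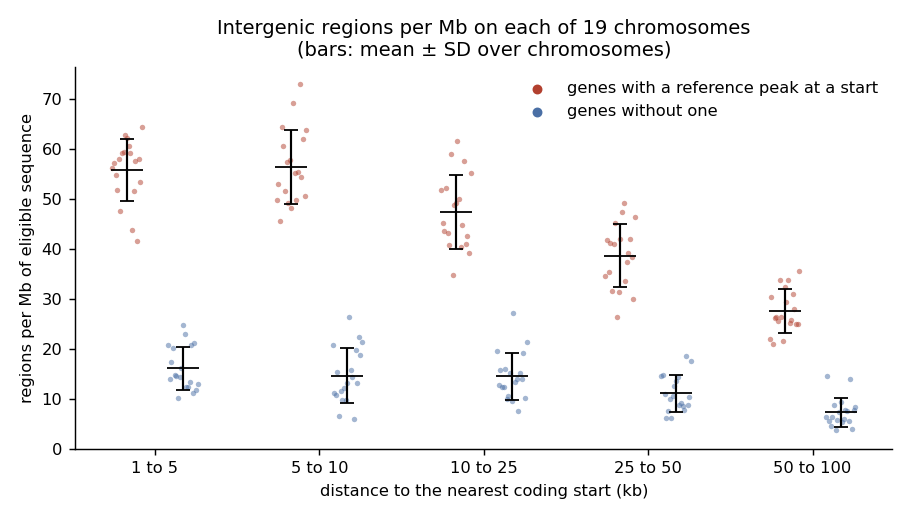
Intergenic regions per Mb of eligible sequence (y axis) against distance to the nearest coding start in kb (x axis), where each point is 1 of 19 chromosomes and bars are mean ± SD over chromosomes. Points for genes with a reference peak at a start lie above those for genes without one in each bin, at 55.8 ± 6.20 and 16.1 ± 4.37 per Mb at 1 to 5 kb and 27.6 ± 4.32 and 7.31 ± 2.92 at 50 to 100 kb.

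Intergenic regions were sparser than distal regions within genes. Within 100 kb of a coding start, 21039 gene body regions occurred at 32.5 per Mb of the corresponding sequence, compared with 25.4 for the intergenic ones. The log2 ratio was -0.35 ± 0.16 over chromosomes (SD, n = 19), and the intergenic density was lower on 19 of 19 (two-sided paired permutation test, unadjusted p = 2e-05). With gene body regions and sequence at any distance, which is not the range of the intergenic regions, the density was 27.3 per Mb and the log2 ratio -0.10 ± 0.15 (lower on 14 of 19 chromosomes, permutation adjusted p = 0.0077). Beyond 100 kb the density was 4.63 per Mb (log2 ratio 2.56 ± 0.61, SD, higher within reach on 19 of 19 chromosomes, permutation adjusted p = 3.67e-05). On the same scale, upstream density exceeded downstream density by 0.12 ± 0.16 (SD, higher on 16 of 19 chromosomes, permutation adjusted p = 0.00279). The 3 comparisons with adjusted values belong to 11 that were chosen after values had been seen, and their p-values were adjusted over the 11. The comparison limited to 100 kb was added later still.

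The summit scores were close to those of other distal regions. The score is a value the authors deposited for each summit, whose scale is not stated, and it takes recurring values such as 706 and 727. Its median was 727 in the intergenic regions (interquartile range 486 to 1094, range 102 to 2323), 727 in regions of coding gene bodies, 706 in those beyond 100 kb and 1406 at coding promoters. Over chromosomes, the median differed from that of gene body regions by -1.79 ± 29.3 (SD, n = 19, permutation p = 0.815) and from that of regions beyond 100 kb by 15.4 ± 55.4 (p = 0.236 by the same permutation test). The difference from promoters was -684 ± 61.0 (lower on 19 of 19 chromosomes, permutation p = 2e-05). The best summit of each region was kept, and promoter regions had more peaks to choose from (mean 1.76 against 1.31). With every summit used, the difference from promoters was -403 (permutation p = 2e-05). Against gene body regions (1.29 peaks) and regions beyond 100 kb (1.24 peaks), every summit gave -1.79 and 7.71. Regions upstream and downstream of their nearest start differed by 11.1 ± 48.3 (permutation p = 0.334). Near open genes the median per chromosome was 740 ± 31.2 and near the others 676 ± 44.0 (higher on 17 of 19, permutation adjusted p = 0.000306, among the 11 comparisons). This difference of 63.8 also depended on keeping the best summit, as it was 33.9 ± 54.4 with every summit and 25.3 ± 45.8 in regions with a single reference peak (SD, n = 19, unadjusted permutation p = 0.0155 and 0.0289).

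Which recognition sequences lie at these summits was asked next. Of 16 motifs, 14 were present within 100 bp of the summit more often than in windows of equal size 1000 bp to each side (paired permutation test over 19 chromosomes, Benjamini-Hochberg adjusted over the 16). The most frequent was AP-1, the FOS and JUN dimers, in 20.4% of regions (3260) and 3.50% of flank windows. PU.1 was found in 11.1% (1771) and 1.14%, C/EBP in 13.4% (2138) and 7.76%, and RUNX in 9.88% (1575) and 5.55%. For stimulus-activated factors the shares were 5.98% and 1.84% for NF-kB, 7.69% and 5.16% for STAT6, 5.76% and 2.10% for the PU.1-IRF composite, and 4.10% and 2.90% for IRF. CTCF showed the widest ratio among these, with 5.40% of regions (861) and 0.130% of flank windows. The adjusted permutation p-value was 4e-05 for each of these motifs except IRF, for which it was 0.0002.

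A pair of motifs of other tissues was searched as a control. HNF4, the site of a liver and gut nuclear receptor, was present in 0.295% of regions and 0.273% of flank windows (permutation adjusted p = 0.712). HNF1 was found in 0 of 15948 regions, which allows a share of up to 0.0188%, but its long pattern was absent from all 58386 regions and thus too rare to serve as a control. Shares of all 58386 regions, promoters included, were 17.3% for AP-1 (10130 regions), 11.6% for C/EBP, 10.1% for PU.1, 8.31% for RUNX, 6.91% for STAT6, 5.38% for NF-kB, 5.03% for the composite, 4.57% for SP/KLF, 3.73% for IRF, 3.66% for CTCF, 1.62% for MEF2, 1.07% for CRE, 0.534% for MiT, 0.216% for HNF4 and 0 for HNF1. The matches gathered at the summit to different degrees. Within the 100 bp, the median distance of a match from the summit was 19 bp for CTCF, 31 bp for PU.1, 32 bp for AP-1, 40 bp for NF-kB and RUNX and 44 bp for C/EBP, while it was 47 bp for HNF4.

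**Figure D2:**
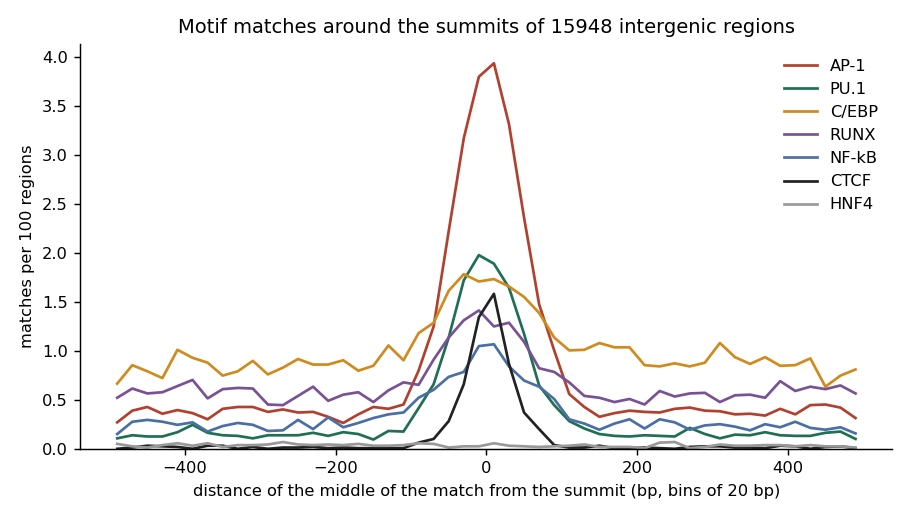
Matches per 100 intergenic regions (y axis) in bins of 20 bp by distance from the summit in bp (x axis), with 1 line per motif over 15948 regions. AP-1, PU.1 and CTCF matches form a peak on the summit, C/EBP, RUNX and NF-kB matches a broader rise above their flanks, and HNF4 matches stay near the axis (0.295% of regions within 100 bp).

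Many regions had no match to the motifs searched. Counting 9 motifs (PU.1, AP-1, NF-kB, IRF, the composite, C/EBP, RUNX, STAT6 and CTCF), 6094 regions (38.2%) had none, 6848 (42.9%) had 1 and 3006 (18.8%) had 2 or more. AP-1 matches were less frequent in regions that had a match to PU.1 and to several of the other motifs. AP-1 was found in 13.0% of regions with a PU.1 match and in 21.4% of those without. Over chromosomes these shares were 13.1% ± 2.59 and 21.5% ± 1.42 (SD, n = 19, lower with PU.1 on 19 of 19, permutation adjusted p = 3.67e-05, among the 11 comparisons). AP-1 was likewise present in 12.9% of regions with and 20.9% of those without the composite, in 14.7% and 20.7% for IRF and in 17.9% and 20.8% for C/EBP, which was not tested. NF-kB and RUNX showed the opposite tendency, as RUNX was present in 13.2% of regions with and 9.66% of those without NF-kB, a difference that was not tested.

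The motif content varied with the score. When regions were ordered by score and divided into 4 groups of 3987, PU.1 matches occurred in 7.65%, 10.7%, 12.6% and 13.5% from the lowest to the highest group. AP-1 was present in 19.8%, 16.7%, 18.9% and 26.4%, with its lowest share in the second group. CTCF was present in 6.85%, 7.98%, 4.49% and 2.28%. NF-kB shares were highest at both ends (7.12%, 5.12%, 4.62% and 7.07%). The nearest gene was open for 73.9%, 73.8%, 76.5% and 80.5% of regions. These shares are descriptions and were not tested.

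The intergenic regions were then set against regions within coding gene bodies, their closest counterpart. Only CTCF differed of the 16 motifs. It was present in 5.40% of intergenic and 3.44% of gene body regions, with a difference of 1.95 ± 0.96 percentage points over chromosomes (SD, n = 19, higher on 18 of 19, permutation adjusted p = 0.00048). Against the gene body regions within 100 kb (3.61%) the difference was 1.77 ± 1.00 (SD, higher on 17 of 19, permutation adjusted p = 0.00048), and CTCF was again the 1 motif past the threshold. AP-1 (20.4% and 20.5%), PU.1 (11.1% and 11.7%), C/EBP (13.4% and 12.7%) and RUNX (9.88% and 9.55%) did not pass the test, and their differences over chromosomes were 0.162 ± 2.33, -0.566 ± 1.42, 0.574 ± 1.42 and 0.363 ± 1.26 percentage points. SP/KLF (1.18% and 0.861%, permutation adjusted p = 0.0589) was past the threshold in several alternative settings, in which 2 to 5 motifs differed. The control HNF4 passed it with 2500 bp kept clear of starts (0.126 percentage points, permutation adjusted p = 0.0328). It also passed with every summit (0.136, permutation adjusted p = 0.0137). NF-kB (1.05, permutation adjusted p = 0.00432) and MiT (0.181, permutation adjusted p = 0.0301) passed with 200 bp windows. GC content was also higher in the intergenic windows, at 48.8% ± 0.85 against 48.0% ± 0.79 over chromosomes (SD, n = 19, higher on 17 of 19, permutation adjusted p = 0.00011, among the 11 comparisons), and its part in the CTCF difference was not tested.

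Compared with regions beyond 100 kb, 6 motifs differed. CTCF (5.40% and 1.55%, higher on 19 of 19 chromosomes, permutation adjusted p = 0.00032) and SP/KLF (1.18% and 0.598%, permutation adjusted p = 0.00485) were more frequent within reach of genes. PU.1 (11.1% and 13.4%), AP-1 (20.4% and 23.1%), C/EBP (13.4% and 16.6%) and MEF2 (1.75% and 2.66%) were less frequent. GC content was 48.8% ± 0.85 within reach and 46.7% ± 1.09 beyond (SD, n = 19, permutation adjusted p = 3.67e-05, among the 11 comparisons). With the choice restricted to summits that reached the median score, 2 motifs differed, and PU.1, AP-1, C/EBP and MEF2 no longer passed, the first 3 with fewer regions and differences of -2.15, -1.17 and -2.86 percentage points (permutation adjusted p = 0.285, 0.717 and 0.054) in place of -2.66, -2.07 and -3.04. For MEF2 the difference was then -0.63 (permutation adjusted p = 0.506). AP-1 also failed the test with 2500 bp kept clear of starts (-1.43, permutation adjusted p = 0.172), and AP-1, SP/KLF and MEF2 with 50 bp windows (-1.78, 0.112 and -0.54, permutation adjusted p = 0.0507, 0.413 and 0.0689).

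Coding promoters had another set of motifs. Against them, 14 of 16 motifs differed, 11 of which were more frequent in the intergenic regions, the control HNF4 (0.295% and 0.144%, permutation adjusted p = 0.0239) included. AP-1 was present in 20.4% of intergenic regions and 4.95% of promoters, PU.1 in 11.1% and 4.08%, C/EBP in 13.4% and 5.75%, RUNX in 9.88% and 2.95%, and CTCF in 5.40% and 1.39%. The 3 motifs that were less frequent were SP/KLF (1.18% and 19.3%), the GC box bound by ubiquitous factors, CRE (0.514% and 3.37%) and MiT (0.320% and 1.60%). Each of these 8 motifs differed in the same direction on 19 of 19 chromosomes (permutation adjusted p = 2.67e-05). Promoter windows had a mean GC content of 63.3% ± 9.25 and intergenic ones of 48.9% ± 6.32 (SD over regions), and how far base composition accounts for these differences was not tested.

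**Figure D3:**
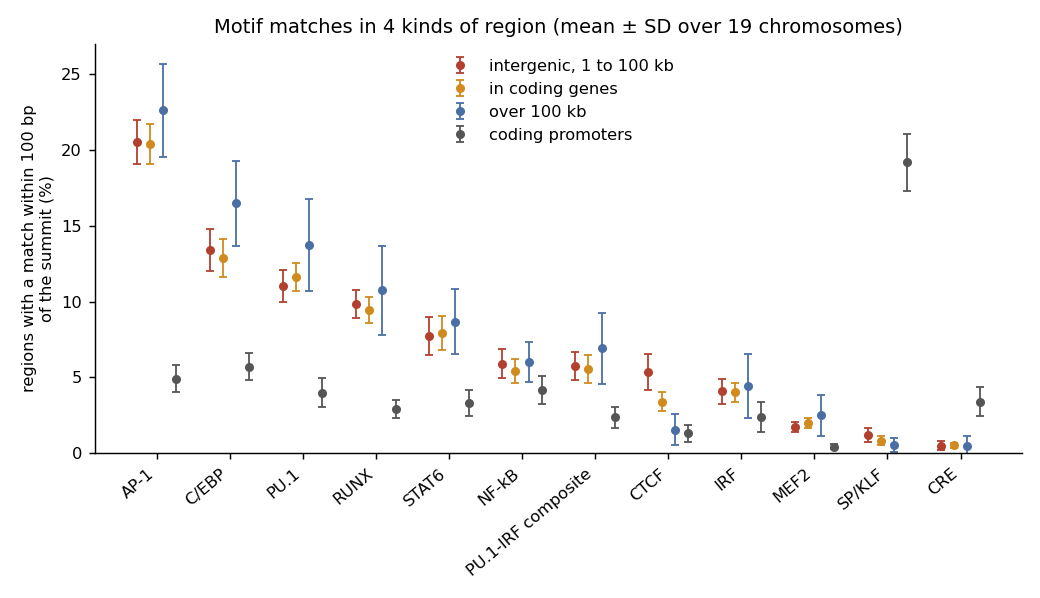
Share of regions with a match within 100 bp of the summit in percent (y axis) for 12 motifs (x axis) in intergenic regions, gene body regions, regions over 100 kb from a coding start and coding promoters (points and bars, mean ± SD over 19 chromosomes). Intergenic and gene body points nearly coincide except at CTCF (5.40% and 3.44% of all regions), and promoters stand apart with low AP-1 (4.95%) and high SP/KLF (19.3%).

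The motif content also varied with distance among the intergenic regions themselves. CTCF matches were present in 6.91% of regions at 1 to 5 kb, 5.57% at 5 to 10 kb, 6.28% at 10 to 25 kb, 4.61% at 25 to 50 kb and 3.79% at 50 to 100 kb. AP-1 moved in the other direction, with 16.6%, 19.2%, 19.9%, 21.7% and 23.4%, and PU.1 with 9.08%, 10.7%, 11.1%, 11.5% and 12.5%. Between regions at 1 to 10 kb and at 50 to 100 kb, 6 motifs differed. CTCF (6.22% and 3.79%, higher near the start on 15 of 19 chromosomes, permutation adjusted p = 0.00336) and SP/KLF (1.53% and 0.989%, permutation adjusted p = 0.0226) were more frequent near the start. AP-1 (17.9% and 23.4%), PU.1 (9.93% and 12.5%), C/EBP (12.5% and 15.1%) and MiT (0.240% and 0.692%) were more frequent far from it. Of the shares, those of NF-kB (6.20% and 5.87%), IRF (3.69% and 4.38%) and STAT6 (7.51% and 7.78%) did not pass the test. With summits at or above the median score, 2 motifs differed, and AP-1, PU.1 and C/EBP were not among them (permutation adjusted p = 0.0594, 0.55 and 0.55), although the AP-1 difference was larger, at -6.50 percentage points in place of -5.38, and those of PU.1 and C/EBP were -1.93 and -1.78 in place of -2.60 and -2.54. The differences of C/EBP and SP/KLF also missed the threshold with 50 bp windows (-0.99 and 0.319, permutation adjusted p = 0.435 and 0.0551), that of SP/KLF with every summit (0.426, p = 0.0685 by the same permutation test) and that of PU.1 with 2500 bp kept clear of starts (-2.12, permutation adjusted p = 0.0625). The MiT difference of -0.48 fell between -0.26 and -0.38 and missed the threshold in 3 settings (permutation adjusted p = 0.0588 to 0.56). As density fell with distance, the number of regions with an AP-1 match per Mb did not follow their share, and was 5.79, 6.34, 5.91, 5.19 and 3.94 from the nearest to the farthest bin. That with CTCF was 2.41 in the nearest and 0.638 in the farthest.

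Gene body regions at matched distances did not have as steep a CTCF profile. Their CTCF shares were 3.19%, 3.82%, 3.90%, 3.75% and 3.02% from the nearest to the farthest bin. The distance between the groups was accordingly widest at 1 to 5 kb (6.91% and 3.19%) and smallest at 50 to 100 kb (3.79% and 3.02%), which was not tested separately. In gene body regions AP-1 shares were 19.5%, 20.6%, 20.3%, 20.1% and 22.6%, and PU.1 shares 11.2%, 11.4%, 11.7%, 11.2% and 12.4%. C/EBP was present in 11.6% of them at 1 to 5 kb and 14.0% at 50 to 100 kb. These 3 motifs were thus most frequent in the farthest bin there too. At 1 to 5 kb the AP-1 and PU.1 shares were above the intergenic ones (16.6% and 9.08%). None of this was tested.

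**Figure D4:**
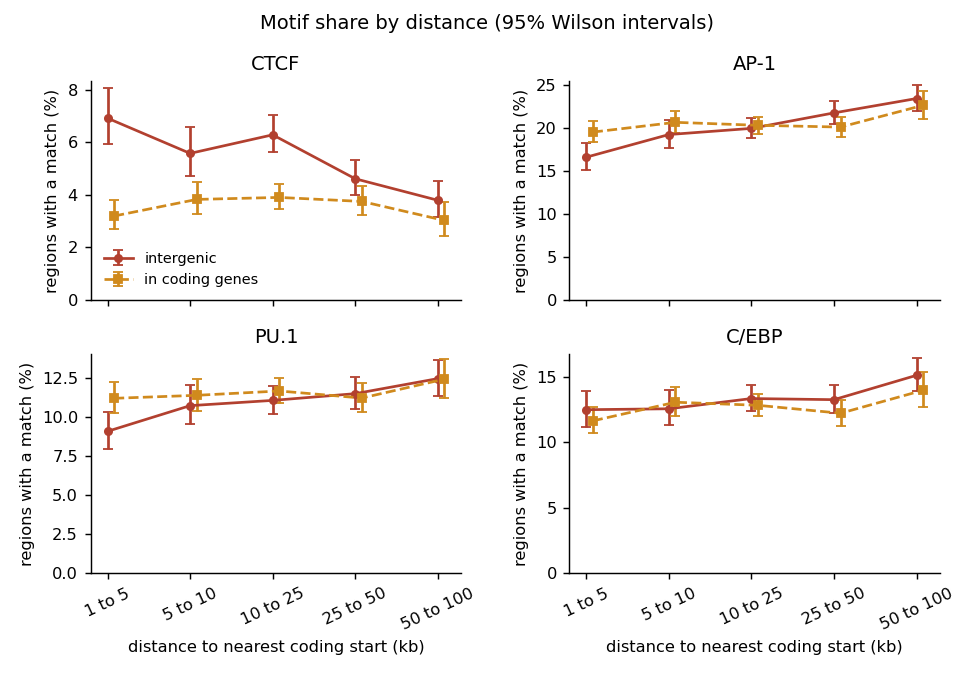
Share of regions with a CTCF, AP-1, PU.1 or C/EBP match in percent (y axes, each from 0) by distance to the nearest coding start in kb (x axes), for intergenic regions and gene body regions, with 95% Wilson intervals, which cover counting error only. Intergenic CTCF shares drop from 6.91% to 3.79% while gene body shares stay between 3.02% and 3.90%. Intergenic AP-1 shares rise from 16.6% to 23.4%, and gene body shares are 19.5% in the nearest and 22.6% in the farthest bin.

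The 861 intergenic regions with a CTCF match formed a group with its own features. Their median score was 593 (interquartile range 458 to 812), while it was 737 (495 to 1117) in the 15087 regions without. Per chromosome, the difference in medians was -137 ± 48.6 (SD, n = 19, lower with CTCF on 19 of 19, permutation adjusted p = 3.67e-05). With every summit the difference was -84.1 ± 42.8, and in regions with a single reference peak -82.4 ± 45.4 (SD, n = 19, lower on 19 and 18 of 19, unadjusted permutation p = 2e-05 each), so that part of it went with keeping the best summit. Regions with CTCF were narrower (median 198 and 222 bp), more often the sole peak of their extended region (89.1% and 78.7%) and less often mostly repetitive (2.44% and 8.95%). AP-1 matches were present in 4.53% of them and in 21.3% of the others, and PU.1 matches in 1.97% and 11.6% (each lower on 19 of 19 chromosomes, permutation adjusted p = 3.67e-05). Their nearest gene was open in 67.9% of cases, compared with 76.7% (lower on 18 of 19 chromosomes, permutation adjusted p = 4.71e-05). The 4 tested differences of this paragraph are among the 11 comparisons chosen after values had been seen. The CTCF site itself read towards the nearest coding start in 402 regions (46.7%, Wilson interval 43.4 to 50.1%) and away from it in 458. The Btbd10 region shown above (chr7:113377878-113378301, score 1929, 8703 bp upstream) had its CTCF match 19 bp from the summit and no other of the searched motifs.

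The genes around which intergenic regions accumulated were examined last. Each region was assigned to the coding gene with the nearest start, which is a matter of position and not of regulation. Of 20722 coding genes, 6826 (32.9%) were nearest to at least 1 intergenic region, and 815 to 5 or more. Of 11720 open genes, 41.3% had a region, as did 22.0% of 9002 other genes. Genes of the LPS response list, such as cytokines, chemokines and their feedback inhibitors, had the most. In that list 24 of 28 genes had a region, the median was 5 per gene, and the density was 113 per Mb. The macrophage list (lineage factors, receptors and lysosomal proteins) had 20 of 24, a median of 3 and 71.8 per Mb, and the IL-4 response list 17 of 21, a median of 3 and 65.7 per Mb. For comparison, the density was 25.4 per Mb over all coding genes and 41.1 per Mb over open ones, with medians of 0. Of 15 genes used by all cells, 7 had a region, at 91.7 per Mb of the 0.305 Mb that met the rule. Of 30 genes of other tissues, 12 had a region, with a median of 0 and 14.8 per Mb; 2 of these 30 genes were open, and genes that were not open had 11.5 per Mb, 22.0% of them having a region. The lists were compiled from general knowledge but chosen with earlier results of these data known, all 28 LPS response genes were open, and the lists were not tested against each other.

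**Figure D5:**
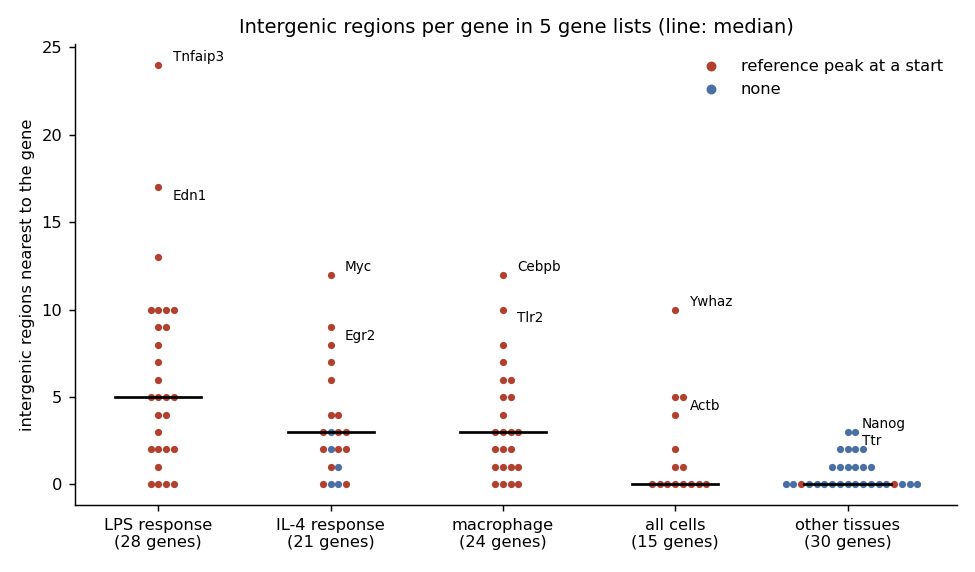
Number of intergenic regions nearest to each gene (y axis) in 5 gene lists (x axis), with 1 point per gene, coloured by whether a start had a reference peak, and a line at the median. The LPS response list has the highest median (5) and the gene with the most regions, Tnfaip3 with 24, while genes of other tissues reach no more than 3.

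The gene with the most intergenic regions on chromosomes 1 to 19 was Tnfaip3 (ENSMUSG00000019850.11, chr10:19000910-19015657), which encodes A20, an inhibitor of NF-kB signalling. It had 24 regions in 167.366 kb of eligible sequence, 13 of them upstream. Zfp36l2, an RNA-binding protein that promotes mRNA decay, followed with 18, all of them downstream of its start. The cysteine protease gene Ctsc, the endothelin gene Edn1, the AP-1 subunit gene Fos and the zinc finger factor gene Klf6 had 17 each. Ado, Rbpj, Runx3 and S1pr1 had 16 each. All 10 of these genes were open. Ado (chr10:67544511-67548955), which encodes an enzyme of thiol metabolism, neighbours the early response gene Egr2 (chr10:67535475-67542188). All 16 regions of Ado lay upstream of it, on the side away from Egr2, which itself had 9. Which gene these regions act on was not tested.

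Among LPS response genes, Tnfaip3 (24) and Edn1 (17) were followed by Nfkbiz, a nuclear regulator of NF-kB, with 13. Il10, which encodes an anti-inflammatory cytokine, Il12b, which encodes the p40 subunit of IL-12 and IL-23, Il1b and Nfkbia, the gene of the NF-kB inhibitor IκBα, had 10 each. No region was assigned to Ccl3, Cxcl10, Il23a or Tnf. Little sequence around these 4 genes met the rule (5.97, 0, 3.47 and 1.22 kb, respectively), as compared to 118.2 kb around Il12b. Regions nearest to LPS response genes numbered 173, with a median score of 923. NF-kB matches were present in 20 of them (11.6%, against 5.98% of all intergenic regions), C/EBP in 36 (20.8% against 13.4%), IRF in 13 (7.51% against 4.10%), AP-1 in 38 (22.0% against 20.4%) and CTCF in 3 (1.73% against 5.40%). The share with NF-kB was 10.7% (3 of 28 regions) for the genes used by all cells and 3.53% (3 of 85) for the macrophage list. C/EBP was found in 6 of 20 regions (30.0%) of the genes of other tissues, and IRF in 10.0% of these and 8.33% of the regions of the IL-4 response list. Regions of 1 gene share a locus, and none of the shares given for lists was tested.

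The Tnfaip3 regions extended from 3.589 kb to 84.311 kb from the nearest start, with scores between 196 and 1760. The best-scored one, 68.4 kb downstream, is shown above and had a C/EBP match close to its summit. The 4 highest upstream scores were 1606 at 78.8 kb (a PU.1 match), 1518 at 28.4 kb (no motif), 1505 at 46.5 kb (no motif) and 1369, which was reached at 30.6 kb (AP-1 and RUNX) and at 62.6 kb (AP-1 and IRF). Of the 24 regions, 1 had an NF-kB match, at 46.952 kb downstream (chr10:18964870-18965129, score 1431). AP-1 and C/EBP matches were spread over the others, and several had none of the motifs.

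Il12b had 10 intergenic regions, 8 of them upstream. The best-scored region lay 9.828 kb upstream (chr11:44389930-44390612, score 1594), was the widest of the 10 at 683 bp, and combined NF-kB, C/EBP and RUNX matches. The next scores were 1036 at 21.969 kb (a PU.1 match), 1025 at 1.003 kb and 1013 at 27.032 kb (no motif each), and the lowest was 189 at 40.207 kb. A region with IRF, composite and RUNX matches at 17.682 kb had a score of 563. At Il10, the 10 regions had scores from 307 to 1708. The highest was 18.389 kb downstream (chr1:131038117-131038501) with AP-1 and NF-kB matches, followed by 1308 at 6.153 kb and 1284 at 23.086 kb, both downstream and without any of the motifs. A second NF-kB match of this locus was in a region 4.291 kb upstream with a score of 867.

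Other LPS response genes are represented by their best-scored region alone. That of Nfkbiz (score 1568) lay 67563 bp downstream, that of Il1b (1543) 10798 bp downstream, and that of Nos2, the inducible nitric oxide synthase gene, (1357) 4183 bp upstream. The best region of Ptgs2, the prostaglandin synthase gene, had a score of 1212 at 43412 bp downstream and none of the motifs.

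In the IL-4 response list, the transcription factor genes Myc (12 regions), Egr2 (9), Irf4 (8) and Klf4 (7) came before Tgm2, the transglutaminase gene (6). Cdh1, Chil3, Mrc1 and Pdcd1lg2 had none. Of these, Mrc1 had 6.40 kb of sequence that met the rule, while Chil3 had 38.4 kb, Pdcd1lg2 21.7 kb and Cdh1 13.9 kb. The best region of the chemokine gene Ccl24 had a score of 979 and lay 4205 bp downstream. Over the 72 regions of the list, STAT6 matches were present in 11 (15.3%, against 7.69% of all intergenic regions), AP-1 in 25 (34.7% against 20.4%), PU.1 in 15 (20.8% against 11.1%), C/EBP in 5 (6.94% against 13.4%) and CTCF in 0. The genes used by all cells had PU.1 in 21.4% and AP-1 in 25.0% of 28 regions, and the macrophage list in 9.41% and 10.6% of 85. These shares are descriptions too.

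In the macrophage list, Cebpb (12 regions), which encodes C/EBPβ, the pattern receptor gene Tlr2 (10), Cebpa (8), Runx1 (7) and Adgre1 (6, as many as Mitf), the gene of the F4/80 antigen, had the most. The best-scored Cebpb region (chr2:167759941-167760384, score 2166) was 71289 bp downstream of the start and contained a C/EBP match 84 bases from the summit. Cd68, Irf8, Mertk and Spi1 had none. For Spi1 and Mertk 4.99 and 4.78 kb of sequence met the rule, and for Cd68 and Irf8 there was none.

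The lack of intergenic regions at Irf8, the gene of a lineage-determining factor, follows from the annotation. A readthrough gene model, Gm20388 (chr8:119910841-124345722), is annotated as protein-coding and runs over 4.43 Mb and 71 other coding genes, so that all regions around Irf8 count as lying in a gene body. With the body of this model set aside but its transcript starts kept, 86 regions would have been intergenic and within reach. Of these, 14 had Irf8 as their nearest coding gene, the best with a score of 1696.

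The 5 best-scored intergenic regions lay near Chmp6 (score 2323), Tob2 (2271), Glis2 (2258), Nlrp1b (2232) and Zfp395 (2219). They fell into different types by sequence. The Glis2 and Zfp395 windows were rich in GC (70.6% and 72.6%) and had an SP/KLF match each, the motif found in 19.3% of coding promoters and 1.18% of intergenic regions, although the nearest annotated start was 7928 and 14544 bp away. The Tob2 window had 2 AP-1 matches 62 and 25 bases before the summit, and lay 2161 bp from an annotated start. The Nlrp1b window (chr11:71251457-71251657), shown above, had 2 PU.1 matches, 1 AP-1 and 1 RUNX match, with 25.9% of its bases in repeats. The Chmp6 window had none of the motifs. The central 76 bases, the length of the reads, occurred once on chromosomes 1 to 19 for each of these 5 regions, and other sequence was not searched.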

How the data were processed

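Per the published methods, the authors trimmed single-end reads of 76 bases with BBDuk and Trimmomatic (0.39 in the submitters' notes). The reads were aligned to mm10 with ShortStack and filtered with SAMtools (1.9), and peaks were called with MACS2 (2.2.6). Peaks were kept if they passed a q-value cutoff and were shared by replicates, so that weaker peaks are absent from the catalog. The deposited lists give positions, and each summit has a score whose scale is not stated by the authors. Reads are not stated to have been moved to the transposase cut site, which makes motif distances approximate. 0 columns belonged to other samples.

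Starts and gene bodies were taken from GENCODE M21. Eligible sequence comprised all bases meeting the position rule outside assembly gaps. Paired differences between chromosomes were tested by flipping signs (100000 resamples, numpy 2.4.6) and tested on simulated data. Flank windows overlapping a reference peak were left out (1152 of 31896). Alternatives changed the clearance, coding starts, summits, repeats and motif window (50 and 200 bp). Named genes were those with the most regions overall (10) and per list (5), list genes with none, the 5 best scores, the limits of the rule and the best region of 14 genes; others were named after their values were seen. Regions, motifs and lists were chosen with earlier results of these data known. Clec7a was not matched as coding. Some listed genes, and 1 of the 16 motifs counted, are not reported here.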

Additional observations from a re-analysis of the deposited data

How the results depend on the processing

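The density ratios kept their direction and stayed past the threshold in each alternative run (log2 0.94 to 1.23 for near against far, 1.70 to 2.09 for open against closed genes), and so did the CTCF differences from flanks, gene bodies, regions beyond 100 kb, promoters and distant regions. The number of motifs that differed from gene body regions (1) was 3 with 2500 bp kept clear of starts, 2 with summits at or above the median score, 3 with every summit, 2 with windows under 50% in repeats and 5 with 200 bp windows. With summits at or above the median score, 2 motifs differed from regions beyond 100 kb and 2 between near and far regions (6 each as reported, and 4 to 7 in the other settings). In that setting the score difference from regions beyond 100 kb was 44.8 (permutation p = 0.0109) and that from promoters -358, but it selects on the score itself and is no test of it. The difference from promoters was -403 with every summit. The cause of the other changes was not tested. Score differences that missed the threshold changed sign in some settings (-7.37 to 1.92 against gene bodies, -15.2 to 22.2 upstream against downstream). Among the single motifs, over all 5 motif comparisons, 519 values kept their call, 17 passed and 24 no longer passed the test, and none that passed turned direction. MEF2 against flanks missed the threshold in 4 settings, NF-kB against promoters with 200 bp windows (0.596, permutation adjusted p = 0.135) and HNF4 against promoters at the median score (permutation adjusted p = 0.0608). Following 8 of the 16 motifs, the score comparisons for CTCF and for open genes with their settings, and the limit of 100 kb for gene body regions (not in these counts, and no call of density, score or motifs changed under it) were added after the data had been seen. Readthrough models such as Gm20388 were not left out. No paired analysis was possible because the lists hold no column per library, and for the same reason no replicate could be left out and depth could not be judged.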
